A study of Mus musculus with 24 samples.

Results

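The immediate early response genes examined here were 10 transcripts taken by symbol, namely Fos, Fosb, Jun, Junb, Egr1, Atf3, Ier2, Ier3, Klf6 and Myc. Each symbol was found in every table, so that all 10 members were described among 31053 listed genes in the hepatocyte table, 25876 in the cholangiocyte table and 20729 in the Smart-Seq table. Immediate early genes are switched on within minutes of a growth factor, stress or dissociation signal, because the transcription factors that act on their promoters are already present in the cell and need only be phosphorylated. The mitogen-activated protein kinase cascade downstream of the EGF, HGF and FGF receptors is a main route to them, and their short-lived messages encode transcription factors that set the later gene response. In the liver they are known for their rapid rise after partial hepatectomy and after the enzymatic isolation of hepatocytes.

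The 24 libraries came from wild-type adult BALB/c mice, and no group carried an engineered allele. The hepatocyte table held 12 bulk libraries, with 3 labelled Pri-Hep (freshly isolated hepatocytes, taken by a Percoll gradient and by removal of EpCAM-positive cells) and 3 each of hepatocyte organoids (Hep-Orgs) at passages P1, P5 and P10. The cholangiocyte table held 9 bulk libraries of cholangiocyte organoids (Cho-Orgs) grown from EpCAM-positive cells, 3 each at P0, P5 and P10. The Smart-Seq table, from a method for small RNA inputs, held a single library for every morphology of early Hep-Orgs, namely grape-like, intermediate and round-like. All organoids grew in Matrigel with R-spondin1, EGF, FGF10, HGF and the TGF-beta receptor inhibitor A83-01, so every organoid group was under continuous growth factor supply. Nicotinamide and gastrin were in both media. The Hep-Orgs medium differed by CHIR99021, FGF7, DAPT and dexamethasone, and the Cho-Orgs medium by Noggin, Wnt3a and forskolin. The study describes the Smart-Seq morphologies in the earlier hepatocyte medium, before DAPT and dexamethasone were added to it. The medium of each Smart-Seq library is not given separately. Forskolin raises cyclic AMP, and dexamethasone is a glucocorticoid. The study compared the organoids with the cells of origin and followed them over passages.

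On mm10, Fos lies on the forward strand of chromosome 12 (85473890 to 85477273), Fosb on the reverse strand of chromosome 7 (19302696 to 19310051), Jun on the reverse strand of chromosome 4 (95049034 to 95052222) and Junb on the reverse strand of chromosome 8 (84974484 to 84978718). Egr1 lies on the forward strand of chromosome 18 (34859823 to 34864984), and Klf6 on the forward strand of chromosome 13 (5861482 to 5870394). Atf3 lies on the reverse strand of chromosome 1 (191170296 to 191218039), Ier2 on the reverse strand of chromosome 8 (84661331 to 84662852), Ier3 on the forward strand of chromosome 17 (35821684 to 35822923) and Myc on the forward strand of chromosome 15 (61985391 to 61990374). All 10 are protein-coding genes with the same bounds in GENCODE M21, and the values sum their exons. Jun overlaps the antisense gene Junos, Junb overlaps Prdx2 on the other strand, and Atf3 contains the gene Gm24748. The study describes its bulk reads as strand-specific, but whether fragments were counted by strand is not given in the sources used here. Whether the FPKM values keep fragments of these overlapping pairs apart is therefore not known.

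Values were FPKM, fragments scaled to transcript length and to library size, which correct for length and depth, so levels can be set side by side between genes of a library. The tables were made separately, so tests were run only within a table, and a fold or difference between tables was not computed. The 12 libraries of the hepatocyte table held 14068906 to 27160365 fragments, which could be recovered from the values. Depth in the other tables was estimated from the spacing of the low values at 37570000 to 40040000 fragments for the Cho-Orgs and 40040000 to 40400000 for the Smart-Seq libraries. Replicates were separate cultures, and the study's legends number them by mouse. In bulk libraries, fewer cells that use a gene and less of its RNA per cell cannot be told apart.

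The labels of the hepatocyte table went against its markers. The highest of the 10 hepatocyte markers was Ttr, which carries thyroid hormone and retinol, at a mean of 433 FPKM over 12 libraries, and Cyp2e1 was listed at 0 in all 9 Hep-Orgs libraries. The highest of the 10 cholangiocyte markers was Spp1 (osteopontin) at 3109 FPKM. Krt19, a keratin of bile duct cells, stood at 237 ± 6.66 FPKM (SD, n = 3) in the libraries labelled Pri-Hep, beside 112 ± 7.99 FPKM of Alb (albumin), the main product of hepatocytes. Epcam, the surface protein used to remove cholangiocytes, stood there at 269 ± 5.40 FPKM. Summed over the list, hepatocyte markers reached 599.6 to 660 FPKM and cholangiocyte markers 4002 to 4222 FPKM per library, with no gap between Pri-Hep and Hep-Orgs. These groups are therefore called libraries labelled Pri-Hep and Hep-Orgs.

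In the Cho-Orgs the sets of markers moved with passage. Summed hepatocyte markers ranged from 6409 to 7321 FPKM in the P0 libraries, 200 to 243 in the P5 libraries and 77.8 to 83.5 in the P10 libraries, and Alb fell from 4994 ± 406 FPKM at P0 to 0.584 ± 0.0579 FPKM at P10 (SD, n = 3 each). Cholangiocyte markers summed to 5587 to 6966 FPKM at P0, then 3878 to 4077 at P5 and 3797 to 3843 at P10. Proliferation markers summed to 303 to 448 FPKM at P0, then 160 to 174 at P5 and 25.1 to 26.5 at P10. Of the stromal and blood lists, the 12 macrophage markers summed to 43.9 to 49.9 FPKM at P0, 72.1 to 77.3 at P5 and 10.1 to 10.5 at P10. The highest was Cd68, at means of 30.4, 74.5 and 9.53 FPKM at P0, P5 and P10. Lyz2 read 9.63, 14.1 and 15.8 FPKM in the P0 libraries and 0 in all P5 and P10 libraries. Clec4f and Vsig4, which define Kupffer cells, were at 0 in all 9 Cho-Orgs libraries. The highest endothelial marker was Tek, at a mean of 13.2 FPKM at P5 and below 1 FPKM at P0 and P10, and the highest stellate and fibroblast marker was Reln, at 69.2 FPKM at P0 and 7.36 FPKM at P5. Among blood lineage markers S100a9 was highest at P10, at 9.11 FPKM.

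Promoter stretches are shown for members that fell with passage in the Cho-Orgs (Fos, Fosb and Jun), that rose (Klf6 and Ier3) and that lay between them (Junb). The relation of these sequences to the changes was not tested. RefSeq entries (GRCm38.p6) were matched for 7 of the 10 members, with none for Egr1, Ier2 and Myc. Each stretch below covers 120 bases, from 150 to 31 bases before the RefSeq start, read 5′ to 3′ on the gene's own strand. For Fosb, Junb, Klf6 and Ier3 that start differs from the gene bounds given above. Capitals mark TGACG, the core of the cyclic AMP response element, or the longer form TGACNTCA, an AP-1 and ATF type element, on the forward strand.
Fos, chr12:85473740-85473859, forward strand: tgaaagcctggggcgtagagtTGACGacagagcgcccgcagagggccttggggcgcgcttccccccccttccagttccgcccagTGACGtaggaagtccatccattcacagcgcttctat
Fosb, chr7:19310076-19310195, reverse strand: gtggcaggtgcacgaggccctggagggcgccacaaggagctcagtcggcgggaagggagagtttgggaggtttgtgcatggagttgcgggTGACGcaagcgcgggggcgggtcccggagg
Jun, chr4:95052253-95052372, reverse strand: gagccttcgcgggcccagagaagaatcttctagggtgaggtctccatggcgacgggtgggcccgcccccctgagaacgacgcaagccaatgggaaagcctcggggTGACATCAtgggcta
Junb, chr8:84978779-84978898, reverse strand: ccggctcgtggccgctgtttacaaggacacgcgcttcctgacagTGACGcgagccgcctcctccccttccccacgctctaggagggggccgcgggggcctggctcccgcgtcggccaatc
Klf6, chr13:5861339-5861458, forward strand: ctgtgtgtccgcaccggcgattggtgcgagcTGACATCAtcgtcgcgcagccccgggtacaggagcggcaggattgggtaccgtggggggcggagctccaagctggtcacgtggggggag
Ier3, chr17:35821563-35821682, forward strand: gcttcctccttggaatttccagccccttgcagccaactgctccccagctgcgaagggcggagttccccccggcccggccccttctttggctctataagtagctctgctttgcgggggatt

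The full promoter windows of 300 bases ran from 250 bases before to 50 bases after the RefSeq start and were searched on both strands. In them TGACG was in 4 of the 7 member promoters (Fos, Fosb, Junb and Atf3) and in 20.8% of 32851 RefSeq promoters. The element TGACNTCA was in 2 (Jun and Klf6), against 8.83% of all promoters. TGANTCA, the letters of the classical AP-1 site, was in 0 of the 7 and in 7.81% of all promoters. The serum response element core, the CArG box, was also in 0 of the 7 windows and in 1.63% of all promoters. Sequence outside the windows was not searched, and Egr1, Ier2 and Myc had no window, so the members may hold such elements elsewhere. Of the general promoter elements, the GC box was in 6 of the 7 and in 35.7% of all promoters, the CCAAT box in 5 and in 37.4%. The letters of the TATA box were in 2 and in 13.6%, beginning at -33 in Fos and at 1, the RefSeq start itself, in Junb. These matches are letters in a window and were not tested as binding sites. The windows of Jun and Klf6 both held TGACATCA, with its first base at -45 in Jun and -119 in Klf6 from the RefSeq start.

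In the Cho-Orgs, Myc, Klf6 and Ier3 rose with passage, Jun and Fos fell, Fosb was listed at low levels after P0, Atf3 rose from P5 to P10, and Junb was lower at P10. Ier2 was lower at P5 and P10 than at P0. Some calls against P0 depended on which libraries were used, namely those of Egr1 and Atf3, of Fos and Klf6 from P0 to P5, and of Ier2 from P0 to P10. From P0 to P10, mean Myc rose 4.66-fold, from 32.3 ± 1.81 to 150 ± 1.37 FPKM, and mean Fos fell from 71.7 ± 36.8 to 20.8 ± 1.62 FPKM (SD, n = 3 each), a change of 3.45-fold. Of the 10 members, 6 passed the test from P0 to P5 (limma on log2(FPKM + 1), two-sided, Benjamini-Hochberg adjusted p under 0.05), with 3 higher and 3 lower. The same test called 56.6% of all 11593 genes, 34.0% higher and 22.6% lower (3938 and 2621 genes, against 3073 and 3458 with median-ratio scaling). From P5 to P10, 6 members passed, 3 in each direction, against 61.5% of all genes (31.0% higher and 30.5% lower). From P0 to P10, 8 members passed, 3 higher and 5 lower, against 72.3% of all genes (41.0% higher and 31.3% lower). These shares lie near the background, so the number of members called says little about the group. The counts of lower members from P0 include Fosb, which could be tested only because it was high at P0. Without P0 replicate 1, 9 members could be tested, and 7, 8 and 8 of them passed from P0 to P5, P5 to P10 and P0 to P10. The comparisons share libraries, each passage entering 2 of the 3. Median log2 changes of the members were -0.18, -0.02 and -0.28 in the 3 comparisons, beside 0.06, 0.01 and 0.07 over all genes tested.

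**Figure D1:**
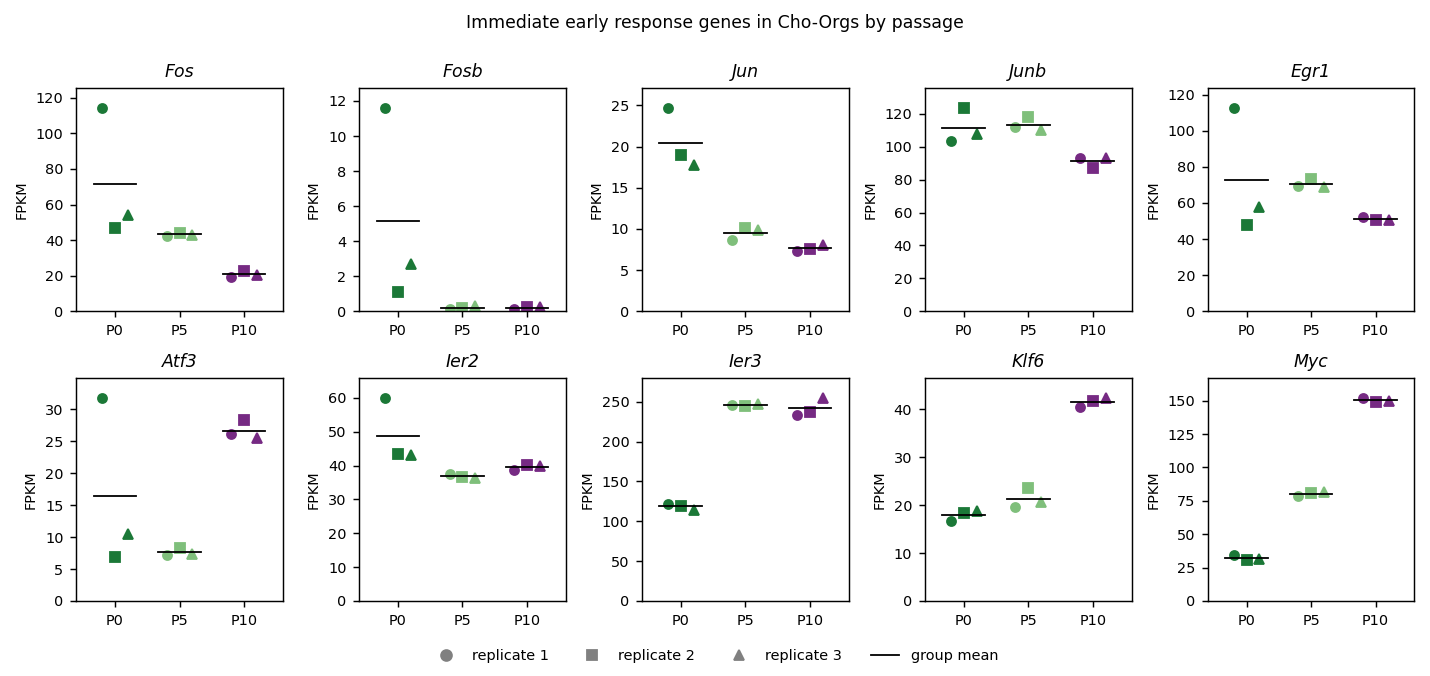
FPKM of the 10 immediate early response genes in each of the 9 Cho-Orgs libraries (y axis, starting at 0 in each panel) by passage (x axis), with 3 replicates per passage shown as circle, square and triangle and the group mean as a line. Myc rose from 30.8–34.3 at P0 to 149–152 at P10 without overlap, while P0 replicate 1 stood above the other 2 P0 libraries for Fos, Fosb, Egr1 and Atf3.

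P0 replicate 1 stood apart from the other P0 libraries in the members. On the log2(FPKM + 1) scale, 4 of the 10 members were at least 2-fold higher there than the mean of replicates 2 and 3, namely Fosb, Atf3, Fos and Egr1, and none was 2-fold lower. Over all 11593 genes, 0.794% differed by 2-fold in either direction. The same comparison for replicate 2 gave 97 genes and 2 members, and for replicate 3 gave 24 genes and 0 members, beside 92 genes for replicate 1. In that library Nr4a1, an orphan nuclear receptor and immediate early gene, read 56.7 FPKM against 17.0 and 22.3 FPKM in replicates 2 and 3, and was 1 of 21 other immediate early genes tested, no other being 2-fold higher. Of 9 hepatocyte markers tested, 3 (Cyp3a11, Apoa1 and Serpina1c) were also 2-fold higher in replicate 1. All 12 proliferation markers were also higher there, by a log2 difference of 0.35 to 0.63 with a median of 0.41, and Myc target genes by a median of 0.42, beside a median of 0.43 for the members. None of the tested cholangiocyte, macrophage, endothelial, stellate, blood or proliferation markers reached 2-fold. The part of these differences in the results was not tested. Member changes from P0 to P5 are given with and without this library, and companion genes with all libraries.

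The Fos family encodes proteins that bind DNA only as dimers with a Jun partner, the dimer being AP-1. Fos read 114, 46.9 and 54.0 FPKM in P0 replicates 1 to 3, 42.5, 44.2 and 43.0 FPKM at P5, and 19.2, 22.5 and 20.5 FPKM at P10. All P10 libraries lay below all P5 libraries, which lay below all P0 libraries. From P5 to P10 Fos fell by 1.03 on the log2 scale (SE 0.26, adjusted p = 0.00656, limma). From P0 to P5 the log2 change was -0.60 (SE 0.26) and did not pass with all libraries (adjusted p = 0.0722, limma). Without P0 replicate 1 it was -0.22 (SE 0.07) and passed (adjusted p = 0.0329), as it did without P0 replicate 2, at -0.85 (adjusted p = 0.0125). From P0 to P10 Fos fell by 1.63 on the log2 scale (adjusted p = 0.000281, limma) and by 1.24 without P0 replicate 1.

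Fosb, a close relative of Fos, read 11.6, 1.12 and 2.71 FPKM in the P0 replicates. It read 0.133, 0.215 and 0.297 FPKM at P5 and 0.111, 0.254 and 0.247 FPKM at P10, which correspond to about 27 to 71 fragments per library. The P5 and P10 libraries overlapped, and all 6 lay below the lowest P0 library. The log2 changes were -1.93 from P0 to P5 and -1.94 from P0 to P10, given as a description. Fosb entered the test only through the 3 P0 libraries in which it exceeded 1 FPKM, so it had to differ to be tested, and it left the test when any P0 library was left out. Without P0 replicate 1 its P0 values were the 1.12 and 2.71 FPKM given above, still above every later library.

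Jun, the founding AP-1 partner of Fos, read 24.7, 19.0 and 17.8 FPKM in the P0 libraries, 8.68, 10.2 and 9.84 at P5, and 7.36, 7.57 and 8.04 at P10. The 3 passages did not overlap. Jun fell from P0 to P5 by 1.01 on the log2 scale (SE 0.11, adjusted p = 4.04e-05, limma) and by 0.88 without P0 replicate 1. The step from P5 to P10 was smaller, at -0.29 (SE 0.11, adjusted p = 0.0428, limma), and this call was lost when any of 5 single P5 or P10 libraries was left out. The change from P0 to P10 was -1.30 (adjusted p = 2.90e-06, limma) and -1.17 without P0 replicate 1.

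Junb, a Jun relative that can restrain proliferation, was the most abundant AP-1 transcript of the Cho-Orgs at P5 and P10. It read 104, 123 and 108 FPKM in the P0 libraries, 112, 118 and 110 at P5, and 93.4, 87.2 and 93.1 at P10. P0 and P5 overlapped, whereas all P10 libraries lay below both. Junb fell by 0.31 on the log2 scale from P5 to P10 (SE 0.07, adjusted p = 0.00279, limma) and by 0.28 from P0 to P10 (adjusted p = 0.00362, limma). From P0 to P5 it changed by 0.03 (SE 0.07, adjusted p = 0.751, limma), and this sign turned to -0.06 with median-ratio scaling and to -0.02 without P0 replicate 1. The change from P0 to P10 without that library was -0.34 (adjusted p = 0.000958, limma).

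The make-up of the Fos family changed with the fall of Fos. Summed over Fos, Fosb, Fosl1 and Fosl2, the family reached 96.8 ± 42.5 FPKM in P0 libraries, 67.3 ± 1.68 at P5 and 46.5 ± 2.17 at P10 (SD, n = 3 each). At P0 the sum was 146 FPKM in replicate 1 and 68.3 and 76.4 FPKM in the others. Fos made up 68.7% to 78.3% of that sum in the P0 libraries, 63.1% to 65.0% at P5 and 42.3% to 45.8% at P10. Fosl1, which lacks the transactivation domain of Fos, rose from 0.923 ± 0.411 FPKM at P0 to 2.95 ± 0.393 at P5 and 6.37 ± 1.04 at P10, by 1.95 on the log2 scale in all (adjusted p = 2.12e-06, limma). Fosl2 stood at 19.1 ± 0.537, 20.9 ± 0.775 and 19.2 ± 0.496 FPKM, so its share grew from 12.9%–28.8% at P0 to 38.6%–43.4% at P10. In the Jun family, Junb held 50.6% to 58.9% of the summed Jun, Junb and Jund at P0 and 50.5% to 51.6% at P10. Jun itself went from 9.09%–12.03% to 4.06%–4.43%, and Jund, the constitutively expressed partner, from 32.0%–37.4% to 44.3%–45.2%. Shares of FPKM are shares of transcripts and do not measure protein.

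**Figure D2:**
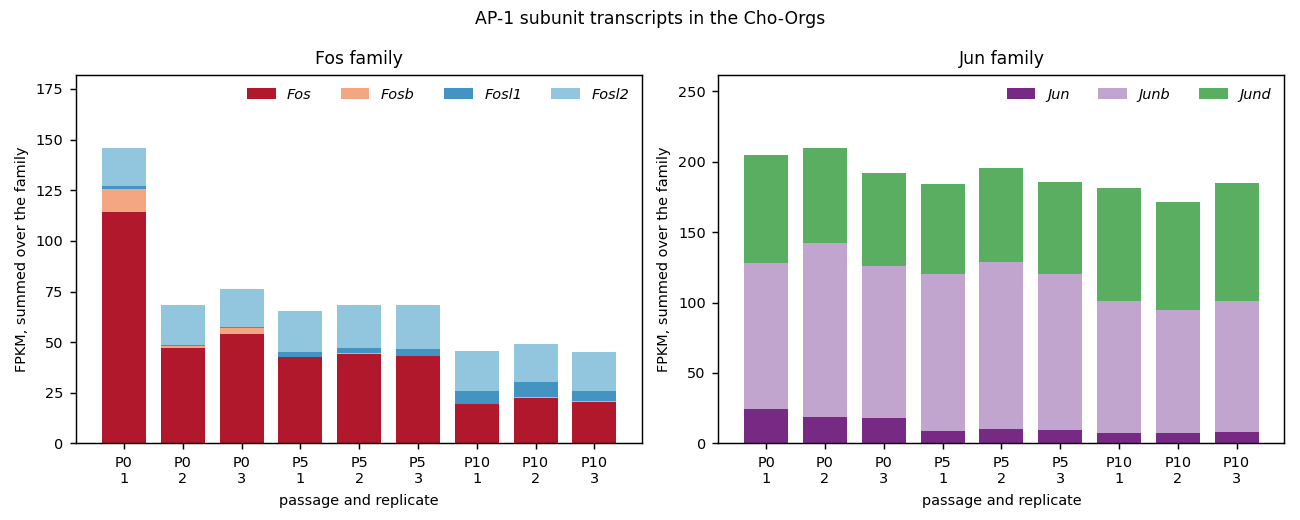
Summed FPKM (y axis, from 0) of the Fos family (left) and Jun family (right) in each Cho-Orgs library, labelled on the x axis by passage and replicate, with a stacked bar segment for each gene. The Fos segment shrank to 42.3%–45.8% of its family at P10 while the Fosl1 and Fosl2 segments did not, and the Jun family sum lay between 171 and 209 FPKM throughout.

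Atf3 encodes a stress-inducible factor of the ATF family that pairs with Jun proteins. It read 31.8, 6.96 and 10.4 FPKM in the P0 libraries, 7.15, 8.29 and 7.37 at P5, and 26.2, 28.3 and 25.6 at P10. All P10 libraries lay above all P5 libraries, and P0 replicate 1 lay above both. Atf3 rose by 1.69 on the log2 scale from P5 to P10 (SE 0.40, adjusted p = 0.00469, limma), 3.51-fold in mean FPKM. From P0 to P5 it changed by -0.74 (SE 0.40, adjusted p = 0.139, limma) with all libraries and by -0.15 without P0 replicate 1, whereas without P0 replicate 2 it was -1.17 and passed (adjusted p = 0.0136). From P0 to P10 it changed by 0.94 (adjusted p = 0.0569, limma), which became 1.54 and passed (adjusted p = 4.39e-06) without P0 replicate 1. The step from P5 to P10 differed from the step from P0 to P5 by 2.43 on the log2 scale (SE 0.69, adjusted p = 0.0164, limma), a call lost without P5 replicate 1 or 3.

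Egr1 is a zinc finger factor whose message follows growth factor signalling closely. It read 112, 48.0 and 57.8 FPKM in the P0 libraries, 69.7, 73.3 and 68.6 at P5, and 52.0, 50.3 and 50.8 at P10. All P5 libraries lay above all P10 libraries, and P0 spanned both. No comparison of Egr1 passed with all 9 libraries, the adjusted p being 0.864 from P0 to P5, 0.125 from P5 to P10 and 0.156 from P0 to P10 (limma). Without P0 replicate 1, Egr1 rose by 0.41 from P0 to P5 (SE 0.07, adjusted p = 0.000953) and fell by 0.46 on the log2 scale from P5 to P10 (adjusted p = 0.000166). From P0 to P10 the change was -0.05 (SE 0.07, adjusted p = 0.582) without P0 replicate 1 and -0.65 without P0 replicate 2, which passed (adjusted p = 0.0181).

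Klf6, a zinc finger factor of the Krüppel-like family that restrains growth in several tissues, rose at both steps. It read 16.7, 18.3 and 18.7 FPKM in the P0 libraries, 19.7, 23.6 and 20.7 at P5, and 40.5, 41.7 and 42.3 at P10. The 3 passages did not overlap. The change was 0.24 on the log2 scale from P0 to P5 (SE 0.07, adjusted p = 0.0158, limma), which was lost with median-ratio scaling (adjusted p = 0.0989) and without P5 replicate 2 (adjusted p = 0.0529). It was 0.19 without P0 replicate 1 (adjusted p = 0.0403, limma). It was 0.93 from P5 to P10 (SE 0.07, adjusted p = 3.89e-06, limma). The difference between the steps was 0.69 (adjusted p = 0.00128, limma). From P0 to P10 Klf6 rose by 1.17 on the log2 scale (SE 0.07, adjusted p = 3.03e-07, limma).

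Ier2 encodes a small nuclear protein of the immediate early response family. It read 59.96, 43.3 and 43.0 FPKM in the P0 libraries, 37.6, 36.5 and 36.3 at P5, and 38.6, 40.2 and 39.96 at P10. All P0 libraries lay above all later libraries. Ier2 fell from P0 to P5 by 0.38 on the log2 scale (SE 0.11, adjusted p = 0.0137, limma) and by 0.22 without P0 replicate 1. The change from P0 to P10, -0.28 (SE 0.11, adjusted p = 0.0422, limma), was lost when any of the 6 P5 or P10 libraries was left out and became -0.12 without P0 replicate 1. From P5 to P10 Ier2 changed by 0.10 (SE 0.11, adjusted p = 0.436, limma), with all P10 libraries above all P5 libraries. That step passed without P0 replicate 1 (adjusted p = 0.0372, limma) and when only those passages were fitted (adjusted p = 0.0280, limma).

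Ier3 encodes a regulator of cell survival that is also a target of ERK signalling. It read 122, 119 and 115 FPKM in the P0 libraries, 247, 245 and 247 at P5, and 234, 237 and 255 at P10. All later libraries lay above all P0 libraries, and P5 and P10 overlapped. Ier3 rose from P0 to P5 by 1.05 on the log2 scale (SE 0.05, adjusted p = 1.52e-07, limma) and did not pass from P5 to P10, at -0.03 (SE 0.05, adjusted p = 0.644, limma). The first change was 1.07 without P0 replicate 1. From P0 to P10 Ier3 rose by 1.02 (SE 0.05, adjusted p = 5.91e-08, limma). At P10 it was the highest member, with a mean of 242 ± 11.4 FPKM (SD, n = 3).

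Myc encodes the basic helix-loop-helix factor that drives ribosome production and growth. It read 34.3, 30.8 and 31.7 FPKM in the P0 libraries, 78.7, 80.9 and 81.8 at P5, and 152, 149 and 150.1 at P10. The 3 passages did not overlap, and the spread within each was below 2 FPKM (SD). Myc rose from P0 to P5 by 1.29 on the log2 scale (SE 0.05, adjusted p = 4.67e-08, limma) and by 0.89 from P5 to P10 (SE 0.05, adjusted p = 4.87e-07, limma). The first change was 1.34 when P0 replicate 1 was left out. The second step was smaller by 0.40 (adjusted p = 0.00360, limma). Proliferation markers moved the other way, all 12 of them falling at each step, with medians of -1.08 and -2.41 on the log2 scale. The part of the proliferation markers in the Myc result was not tested.

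**Figure D3:**
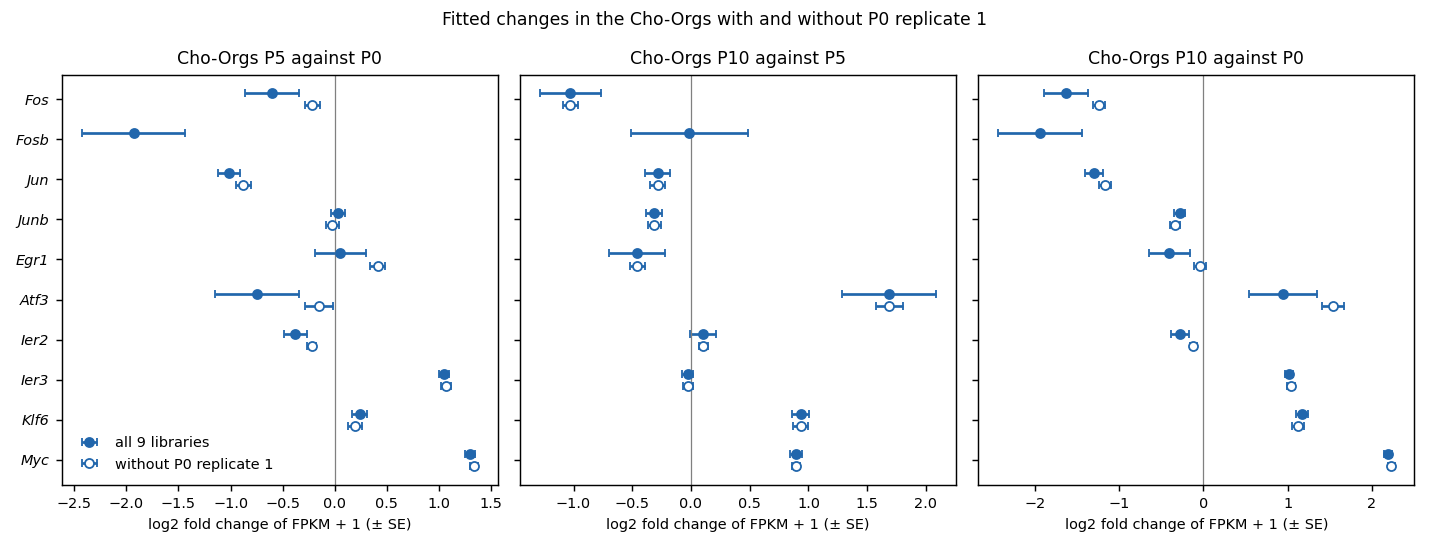
Log2 fold change of FPKM + 1 (x axis) with its standard error for each member (y axis) in the 3 Cho-Orgs comparisons, with all 9 libraries (filled) and without P0 replicate 1 (open). Without it the Fos change from P0 to P5 moved from -0.60 to -0.22, the Atf3 change from P0 to P10 from 0.94 to 1.54, and Fosb was not tested.

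Among genes that were not members, those nearest to a member in profile over the 9 Cho-Orgs libraries (smallest root mean square difference of centred log2(FPKM + 1)) were Tnfrsf19 and Cmpk2 for Fos, at 0.14 each, and Dna2 and Lsm3 for Jun, at 0.10 and 0.11. For Ier3 the nearest was Dusp4, a phosphatase that switches off ERK, at 0.04, followed by Slc25a37. For Myc they were Zmat3 and Plaur, the urokinase receptor, at 0.10 and 0.11. For Klf6 they were Gm38646 and Glce, for Junb C2cd2 and Pdxp, for Ier2 Mrpl40 and Snrpc, for Atf3 Fjx1 and Mirg at 0.31 and 0.34, and for Fosb Spink4 and Igf2 at 0.23 and 0.25. Atf3 and Fosb had the most distant neighbours on this measure, which is not scaled to a member's own spread. That spread (SD) was 0.91 for Atf3, 1.17 for Fosb, 0.95 for Myc and 0.17 for Junb. Some neighbours were near 0, Gm38646 at means of 0, 0.220 and 1.28 FPKM and Igf2 at 3.27, 0.0890 and 0.0420 FPKM at P0, P5 and P10. With 3 passages and 9 libraries, the order of such distances is a description.

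The companion lists were read against the shares of all genes called, 56.6% from P0 to P5, 61.5% from P5 to P10 and 72.3% from P0 to P10, and no list was tested against other genes. Of 13 ligands and receptors tested, 10 passed from P0 to P5 (7 higher, 3 lower) and 11 from P5 to P10 (7 higher, 4 lower). The EGF receptor ligands Ereg and Areg rose from P0 to P5, Ereg from 4.58 ± 0.361 to 19.0 ± 2.19 FPKM and Areg from 20.1 ± 1.04 to 60.4 ± 0.781 FPKM, while Hbegf rose from 28.0 ± 2.56 to 40.2 ± 2.06 FPKM (SD, n = 3 each). Tgfa, another ligand of that receptor, rose from 15.5 ± 0.737 at P5 to 33.2 ± 1.36 FPKM at P10, and Egfr itself from 5.74 ± 0.0453 to 10.2 ± 0.465 FPKM. Fgfr1 fell from 6.32 ± 1.57 FPKM at P0 to 0.403 ± 0.117 at P5 and 0.0138 ± 0.00952 at P10. Fgfr3 fell and then rose, at 23.6 ± 4.94, 7.84 ± 0.940 and 20.8 ± 1.23 FPKM, while Fgfr4 fell from 21.5 ± 1.07 at P5 to 9.07 ± 0.953 FPKM at P10. Fgfr2 fell from 30.7 ± 3.86 at P0 to 19.3 ± 1.49 FPKM at P5. Areg fell again from P5 to P10, by 0.33 on the log2 scale (adjusted p = 0.000335, limma).

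Of 21 kinases and upstream factors tested, 10 passed from P0 to P5 (5 in each direction) and 10 from P5 to P10 (3 higher, 7 lower), with median log2 changes of -0.04 and -0.10. Mapk3, which encodes a kinase at the end of the cascade, fell from 198 ± 2.02 to 145 ± 6.97 FPKM from P5 to P10. Map2k1, the kinase above it, fell from 54.8 ± 0.425 to 40.3 ± 1.33 FPKM. Hras fell from P0 to P5, from 34.7 ± 3.67 to 22.8 ± 0.411 FPKM, whereas Braf rose from 2.89 ± 0.175 to 4.22 ± 0.192 FPKM. The ternary complex factor Elk1 fell from 4.36 ± 0.174 to 3.4015 ± 0.295 FPKM, and Elk4 rose from 4.65 ± 0.341 to 6.07 ± 0.579 FPKM over the same step.

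Of 18 feedback inhibitors tested, 11 passed from P0 to P5 (7 higher, 4 lower), 12 from P5 to P10 (8 higher, 4 lower) and 14 from P0 to P10 (9 higher, 5 lower). Dusp4 and Dusp6, phosphatases that act on ERK, rose from 18.4 ± 0.126 to 38.6 ± 0.970 FPKM and from 44.4 ± 6.56 to 74.6 ± 0.814 FPKM at the first step. Spry2, an inhibitor of receptor tyrosine kinase signalling, rose from 10.1 ± 0.168 to 23.0 ± 0.216 FPKM from P5 to P10, and Dusp5 from 16.0 ± 0.629 to 28.6 ± 0.731 FPKM. Errfi1, which binds and inhibits the EGF receptor, fell from 121 ± 22.1 to 55.9 ± 2.59 FPKM from P0 to P5, and Socs3, an inhibitor of cytokine signalling, from 22.2 ± 5.17 to 9.97 ± 1.51 FPKM. Zfp36, which binds and destabilises short-lived messages, fell from 32.5 ± 1.63 to 21.9 ± 0.882 FPKM and Dusp1 from 55.4 ± 3.87 to 35.8 ± 0.683 FPKM from P5 to P10.

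Of 21 other immediate early genes tested, 18 passed from P0 to P5 (11 higher, 7 lower), 16 from P5 to P10 (10 higher, 6 lower) and 17 from P0 to P10 (10 higher, 7 lower). Ccn2 and Ccn1, targets of YAP and serum response factor, rose from 110 ± 37.1 to 328 ± 20.0 FPKM and from 66.2 ± 20.4 to 138 ± 2.27 FPKM at the first step. Nr4a1 read 32.0 ± 21.6, 19.3 ± 1.30 and 3.14 ± 0.288 FPKM at P0, P5 and P10 and fell by 2.29 on the log2 scale from P5 to P10 (adjusted p = 0.000260, limma). Gadd45a, a growth arrest gene, rose from 30.0 ± 0.558 to 107 ± 3.49 FPKM from P5 to P10, and Ier5 from 20.1 ± 1.37 to 42.4 ± 0.576 FPKM. Nr4a2 rose and then fell, at 3.50 ± 0.953, 9.38 ± 1.05 and 2.10 ± 0.108 FPKM. Of 9 other AP-1 subunits tested, 6 passed from P0 to P5, all higher, and 8 from P5 to P10 (7 higher, 1 lower). Besides Fosl1, Jdp2, a repressor that pairs with Jun, rose from 3.80 ± 0.752 to 8.33 ± 0.929 and 13.7 ± 0.245 FPKM, and Mafg from 12.5 ± 1.34 at P5 to 18.8 ± 0.208 FPKM at P10. Maff rose from 26.7 ± 5.37 to 51.5 ± 1.92 FPKM and fell back to 25.8 ± 0.910 FPKM.

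Downstream, 11 AP-1 target genes were tested, of which 9 passed from P0 to P5 (6 higher, 3 lower) and 7 from P5 to P10 (2 higher, 5 lower). Plaur rose from 36.7 ± 4.19 to 98.2 ± 8.13 and 183 ± 4.21 FPKM, and Ccnd1, which encodes cyclin D1, rose from 216 ± 32.9 to 512 ± 12.7 FPKM from P0 to P5. Timp1, an inhibitor of metalloproteinases, fell from 12.7 ± 3.66 to 3.54 ± 0.0819 and 0.955 ± 0.187 FPKM. Cd44 fell from 211 ± 7.49 to 115 ± 1.22 FPKM from P5 to P10. Of 15 Myc target genes, 6 passed from P0 to P5 (2 higher, 4 lower), whereas 13 passed from P5 to P10 (12 higher, 1 lower). Their median log2 change was -0.08 at the first step and 0.67 at the second. Npm1, the nucleolar protein nucleophosmin, rose from 479 ± 63.1 FPKM at P0 to 987 ± 30.7 FPKM at P10, and Srm, which makes spermidine, from 36.6 ± 0.653 FPKM at P5 to 70.2 ± 0.804 FPKM at P10. The rRNA processing genes Nop58 and Rrp12 rose from 35.5 ± 0.845 to 65.2 ± 3.03 and from 2.80 ± 0.111 to 6.34 ± 0.125 FPKM over the same step. Odc1, the first enzyme of polyamine synthesis, and Ldha fell from P0 to P10, from 132 ± 13.3 to 59.7 ± 3.51 and from 395 ± 22.8 to 153 ± 2.48 FPKM. Of 9 Myc partners and antagonists, 6 passed at each step, 5 higher and 1 lower at the first and 4 higher and 2 lower at the second. Mxd4, which competes with Myc for Max, rose from 12.7 ± 0.332 to 16.3 ± 0.472 and 21.6 ± 1.06 FPKM, and Mxd3 fell from 2.51 ± 0.558 to 0.425 ± 0.0676 FPKM at the first step.

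In the hepatocyte table, the 10 members stood at nearly the same level in all 12 libraries. Fos was the highest, at 89.0 to 105 FPKM with a median of 97.9, followed by Junb at 70.3 to 85.4 with a median of 80.6, Ier3 at 56.8 to 63.5 with a median of 59.4 and Egr1 at 56.1 to 59.4 with a median of 58.0. Ier2 ranged from 33.5 to 37.7 FPKM, Klf6 from 32.2 to 36.1, Jun from 30.3 to 33.3, Myc from 16.4 to 19.4, Atf3 from 4.49 to 5.78 and Fosb from 0.749 to 1.36. Neighbours in this order overlapped between Ier3 and Egr1, between Ier2 and Klf6 and between Klf6 and Jun. The variation coefficient over the 12 libraries was 2.10% for Egr1, 14.8% for Fosb and 4.17% at the median of the members, beside 4.95% over all tested genes and 3.92% over the 6740 genes within the range of levels of the members other than Fosb. Fosb rested on 84 to 218 fragments per library.

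**Figure D4:**
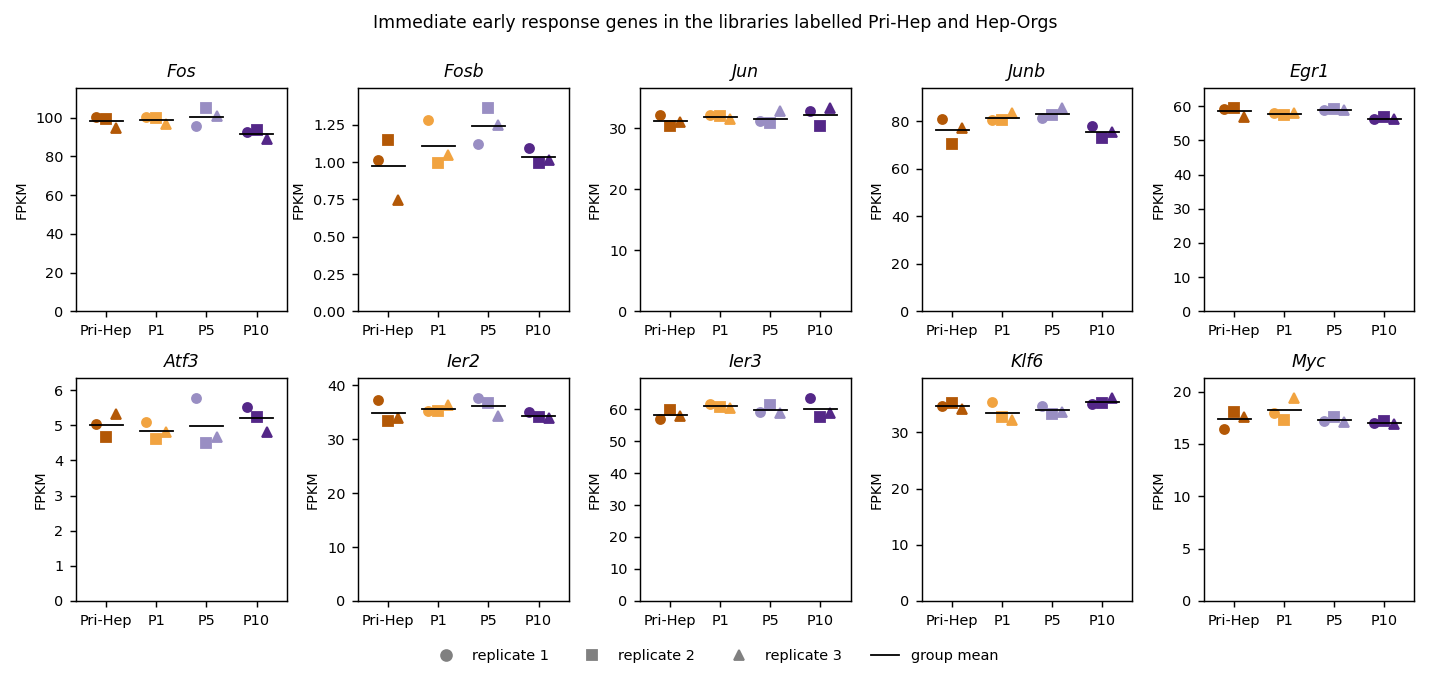
FPKM of the 10 members in the 12 libraries of the hepatocyte table (y axis, from 0) by label (x axis), with replicates as circle, square and triangle and the group mean as a line. The panels are nearly flat, with Fos between 89.0 and 105 FPKM and Egr1 between 56.1 and 59.4 FPKM in all 12 libraries.

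Between the libraries labelled Pri-Hep and Hep-Orgs, 0 of the 10 members passed the test when the 3 passages were averaged (limma, adjusted p under 0.05), and 0 had an unadjusted p under 0.05, against 0% of 10986 genes called and 966 at an unadjusted p under 0.05. The member changes ranged from -0.02 to 0.11 on the log2 scale, the highest being Fosb at 0.11 (SE 0.07). Over the 4 groups (moderated F), 0 members passed against 0.0182% of genes, the lowest adjusted p being 0.354 for Fos. An unadjusted p under 0.05 was found there for 3 members (Fos, Junb and Egr1), against 1098 of the 10986 genes. In any of the 6 pairwise comparisons, 0 members passed against 0.0364% of genes. At an unadjusted p under 0.05, 6 members were found in at least 1 pair. Each pair alone had 436 to 1266 of the 10986 genes at that level, and the share of all genes over the 6 pairs is not given here. Single pairs called 0.00910% of genes for P1 and for P5 against Pri-Hep, 0.0273% for P10 against P5 (0.0182% higher and 0.00910% lower) and 0% for the other 3. limma-voom on the recovered fragments also called 0 members over the 4 groups, while it called 65 genes there. The same test called 0 of the 110 companion genes tested in each of these comparisons, 8 of them at an unadjusted p under 0.05 for Hep-Orgs against Pri-Hep.

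The libraries differed by more than repeated sampling of a single library would give. Over the tested genes, chi-square divided by its degrees of freedom, which is about 1 for repeated sampling of a single library, ranged from 1.97 to 3.31 among the 12 pairs within a group and from 1.85 to 4.89 among the 54 pairs between groups. For the members the variance over the 12 libraries divided by that of counting alone was 10.99 for Junb, 9.30 for Fos and 1.17 for Ier3, with a median of 2.04, beside a median of 1.62 over all tested genes. The median was 2.29 within groups and 2.65 between groups. Separate cultures and separate library preparations both add to counting error, so values above 1 are no finding. Which of these the values reflect was not tested.

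Fos, Junb and Egr1 had the lowest unadjusted p over the 4 groups. Fos read 100, 99.2 and 94.9 FPKM in the libraries labelled Pri-Hep, 101, 99.95 and 96.7 FPKM at P1, 95.5, 105 and 101 FPKM at P5, and 92.4, 93.6 and 89.0 FPKM at P10. The 3 P10 libraries were below all 9 others. The log2 change from P5 to P10 was -0.13 (SE 0.03), with an unadjusted p of 0.00244 and an adjusted p of 0.230 (limma). Junb read 80.8, 70.3 and 77.3 FPKM in the libraries labelled Pri-Hep, 80.6, 80.5 and 83.4 FPKM at P1, 81.5, 82.8 and 85.4 FPKM at P5, and 78.2, 72.9 and 75.5 FPKM at P10. Its P10 libraries lay below all of P1 and P5 and overlapped Pri-Hep, which held the lowest library, with a log2 change from P5 to P10 of -0.14 (SE 0.04, adjusted p = 0.249, limma). Egr1 read 59.3, 59.4 and 56.9 FPKM in the libraries labelled Pri-Hep, 57.9, 57.3 and 58.2 FPKM at P1, 58.8, 59.1 and 59.0 FPKM at P5, and 56.2, 56.8 and 56.1 FPKM at P10. All Egr1 values at P10 were below those of the 9 other libraries, by 0.06 on the log2 scale against P5 (SE 0.02, adjusted p = 0.270, limma). Klf6 read 34.7, 33.3 and 33.6 FPKM at P5 and 35.0, 35.2 and 36.1 FPKM at P10, so that its P10 libraries lay above P5, with an adjusted p of 0.505 (limma).

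Between P5 and P10 of the Hep-Orgs, 5 of the 10 members did not overlap (Fos, Fosb, Junb and Egr1 lower and Klf6 higher), against 17.1% of all genes tested. Between P1 and P10 there were also 5 (Fos, Junb, Egr1, Ier2 and Myc, all lower), against 16.3% of genes, and these comparisons share the P10 libraries. The other 4 pairs of groups gave 1 or 2 members each, against 10.3% to 15.1% of genes. None of these changes passed the adjusted threshold, and the Fos difference from P5 to P10 was 1.09-fold in mean FPKM here and 2.08-fold in the Cho-Orgs. At the same step in the Cho-Orgs, 6 of the 10 members passed the test, against 61.5% of all genes. Fos, Junb and Jun were lower, and Klf6, Myc and Atf3 were higher. Egr1 and Ier2 did not pass there with all 9 libraries (adjusted p = 0.125 and 0.436, limma), nor did Fosb and Ier3. Whether the tables differ was not tested, since they were normalised separately.

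In the hepatocyte table, Fos made up 90.5% to 91.7% of the Fos family in the 12 libraries, those labelled Pri-Hep included, with Fosl2 at 6.70% to 7.89%, and Junb made up 56.6% to 59.9% of the Jun family, with Jun at 22.3% to 25.1%. The Jun share was 4.06% to 12.03% in the Cho-Orgs libraries.

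Among the single Smart-Seq libraries, Klf6 and Atf3 were highest in the grape-like Hep-Orgs, Myc was highest in the round-like, and Egr1, Fos and Ier2 were highest in the intermediate. There were no replicates, so no test was made, and intervals are 95% exact binomial (Clopper-Pearson) intervals of the ratio at estimated depth and cover counting error only. Against the round-like library, 3 of the 10 members differed by 2-fold or more on the log2(FPKM + 1) scale in the grape-like library (2 higher, 1 lower), against 21.8% of 12595 genes (12.9% higher and 8.82% lower). Against the same round-like library, 0 members differed 2-fold in the intermediate library, against 6.39% of genes (3.85% higher and 2.54% lower). Grape-like against intermediate gave 2 members, both lower, against 16.9% of genes (9.71% higher and 7.15% lower). These shares lie near the background in the comparisons that involve the grape-like library.

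Klf6 read 59.2, 37.6 and 24.5 FPKM in grape-like, then intermediate, then round-like organoids, an order kept here for each gene. The grape-like library exceeded the round-like by a factor of 2.41 (2.33 to 2.50). Atf3 read 20.0, 17.7 and 8.60 FPKM, with a grape-like to round-like ratio of 2.33 (2.13 to 2.54) and an intermediate to round-like ratio of 2.06 (1.88 to 2.25). Both genes were highest in the grape-like and lowest in the round-like library.

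Myc ran the other way, at 15.7, 23.2 and 44.5 FPKM, and was 2.84-fold higher in the round-like than in the grape-like library (2.69 to 3.00). Egr1 read 83.8, 219 and 120 FPKM, and was 2.62-fold higher in the intermediate than in the grape-like library (2.57 to 2.67). Ier2 read 53.6, 109 and 97.0 FPKM, with a ratio of intermediate to grape-like of 2.03 (1.95 to 2.12). Both Egr1 and Ier2 were thus lowest in the grape-like library.

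Fos, at 111, 191 and 145 FPKM, was also highest in the intermediate library, by 1.72-fold over the grape-like (1.68 to 1.76). Jun read 58.5, 48.7 and 38.9 FPKM, and Fosb read 8.06, 7.84 and 5.14 FPKM. Junb read 128, 160 and 140 FPKM and Ier3 read 81.7, 90.7 and 73.9 FPKM. For these 5 members no pair of libraries reached 2-fold. Junb and Ier3 varied least among the 10.

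**Figure D5:**
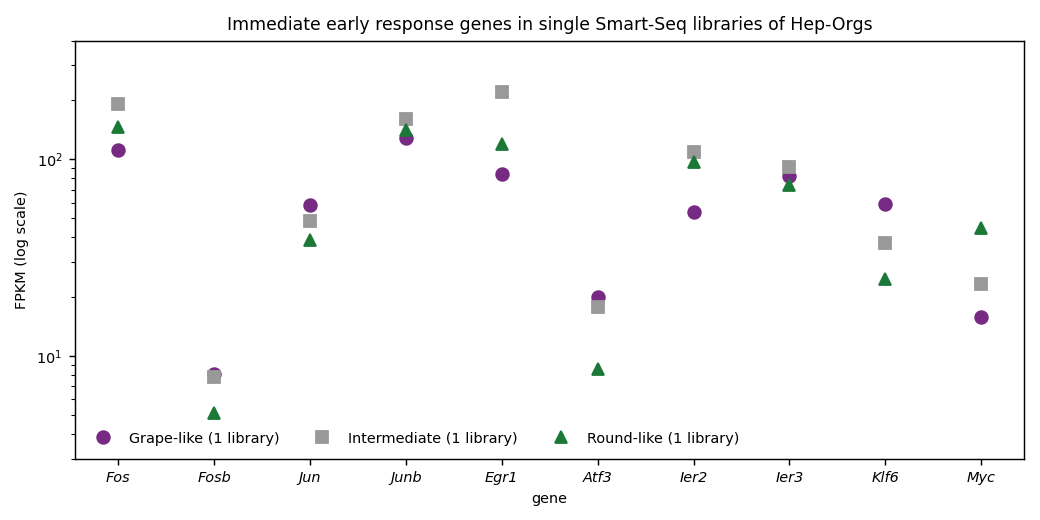
FPKM (y axis, log scale) of each member (x axis) in the single grape-like, intermediate and round-like Smart-Seq libraries. Klf6 and Atf3 were highest in the grape-like library (59.2 and 20.0 FPKM) and Myc in the round-like (44.5 FPKM), while Junb and Ier3 lay close together.

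Markers of other cell types moved with these differences. Summed macrophage markers reached 11208, 3235 and 1794 FPKM in that order of libraries, with all 12 listed markers above 1 FPKM in each and none at 0. The highest, Lyz2 (lysozyme), read 5942, 1792 and 887 FPKM. Stellate and fibroblast markers summed to 1780, 460 and 386 FPKM, led by Dcn and Col3a1, endothelial markers to 141, 53.0 and 27.8 FPKM, led by Eng, and blood lineage markers to 32.98, 15.4 and 5.81 FPKM, led by Ptprc. Hepatocyte markers summed to 5314, 8610 and 1280 FPKM, cholangiocyte markers to 883, 3509 and 2977 FPKM and proliferation markers to 314, 294 and 579 FPKM. The part of these markers in the member differences was not tested.

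Of 11 other AP-1 subunits that passed the level filter in the Smart-Seq table, 5 differed 2-fold between grape-like and round-like (4 higher, 1 lower), led by Batf, an immune-cell AP-1 subunit, at 31.2 against 8.40 FPKM, while Jund read 35.8 against 81.1 FPKM. Of 20 other immediate early genes, 4 did (2 higher, 2 lower), with Ccn2 at 4.22 against 77.7 FPKM and Klf2 at 9.67 against 2.05 FPKM. Of 13 ligands and receptors, 9 did (2 higher, 7 lower), with Hgf at 19.8 against 3.91 FPKM and Hbegf at 7.56 against 30.9 FPKM. Of 19 feedback inhibitors, 5 did (3 higher, 2 lower), with Dusp1 at 70.3 against 27.7 FPKM and Spry2 at 5.46 against 15.5 FPKM, and of 21 kinases and upstream factors only Hras did, at 21.8 against 44.9 FPKM. Of 15 Myc target genes, 7 differed, all lower in the grape-like library where Myc was lowest, with Odc1 at 30.7 against 91.3 FPKM. Their median log2 ratio was -0.97, beside -0.13 over all genes. Of 14 AP-1 target genes, 8 differed (5 higher, 3 lower), with Hmox1 at 252 against 52.6 FPKM and Plaur at 10.3 against 37.0 FPKM, and of 10 Myc partners and antagonists only Mycl did. In the intermediate against the round-like library, 0 Myc target genes, 0 ligands and receptors and 1 feedback inhibitor (Errfi1, at 153 against 61.2 FPKM) differed 2-fold. The Myc target genes there had a median log2 ratio of -0.63, beside -0.12 over all genes.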

How the data were processed

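The members and all companion and marker lists were chosen with earlier results of these data known. The authors deposited FPKM tables made from poly(A) paired-end reads; the submitters' processing notes name featureCounts 2.0.3, edgeR 3.40.2 and mm10, and the aligner and annotation are not given in the sources used here. Genes that reached FPKM 1 in 3 or more libraries were tested with limma 3.58.1 (R 4.3.3, lmFit and trended eBayes) on log2(FPKM + 1), without a replicate block, two-sided, adjusted by Benjamini-Hochberg within a comparison at 0.05, on all groups of a table. Adding the pseudocount understates changes of low genes. Whole fragments recovered from the hepatocyte FPKM (tolerance 0.1) were used for limma-voom. Smart-Seq ratios used 1 library each. Scripts were tested on simulated data. Each member was examined in every comparison, and not every value is printed. Companion genes named were the up to 3 (Smart-Seq 2) largest changes per list and direction, of which some are given.

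Replicate numbers mark mice in the study's legends. Deviations of same-numbered libraries correlated at a median of -0.0063 (Cho-Orgs, 9 pairs) and -0.0016 (hepatocyte table, 18 pairs), so the fit with the block is given as an alternative.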

Additional observations from a re-analysis of the deposited data

Results flagged for a closer look

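In the Cho-Orgs, the change from P5 to P10 differed from the change from P0 to P5 for 6 of the 10 members (limma contrast of the steps, adjusted p under 0.05), against 48.7% of all 11593 genes. Both steps share the P5 libraries. The difference, in log2 units, was 0.73 for Jun (adjusted p = 0.00984), whose fall was mostly in the first step, and -0.34 for Junb (adjusted p = 0.0365). The Junb call was lost in 7 of 9 fits that left out a library, with median-ratio scaling (adjusted p = 0.131) and without the filter (adjusted p = 0.0671). The Jun call was lost without P5 replicate 1 (adjusted p = 0.0528). For Atf3 it was 2.43 (adjusted p = 0.0164), from a first change of -0.74 that did not pass and a second of 1.69. That call was lost without P5 replicate 1 (adjusted p = 0.0574), without P5 replicate 3 (adjusted p = 0.0542) and without the filter (adjusted p = 0.0546). For Klf6 it was 0.69 (adjusted p = 0.00128), with the larger rise in the second step. For Ier3 it was -1.07 (adjusted p = 9.61e-06) and for Myc -0.40 (adjusted p = 0.00360), Myc with the larger rise in the first step and Ier3 with a rise in the first alone. For Fos, Fosb, Egr1 and Ier2 the difference did not pass (adjusted p of 0.463, 0.0916, 0.338 and 0.0581). Without P0 replicate 1 it passed for Fos, Egr1 and Ier2 as well, at -0.81, -0.87 and 0.33.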

How the results depend on the processing

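The number of members called kept within 1.5 times its value under every alternative run in the Cho-Orgs and hepatocyte tables. Leaving out each library in turn gave 5 to 7 members from P0 to P5, 5 to 8 from P5 to P10 and 7 to 8 from P0 to P10, and 0 throughout the hepatocyte table. With the replicate block, which pairs libraries by number, 6, 5 and 8 members were called in the Cho-Orgs comparisons and 0 in the hepatocyte table. The block ended 2 calls, Jun from P5 to P10 (adjusted p = 0.0691) and the Junb step difference (adjusted p = 0.0515), and changed no other member call.

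In the Smart-Seq libraries, a 4-fold limit left 0 members for grape-like against round-like and 0 for grape-like against intermediate, where FPKM rescaled to TPM left 1. For intermediate against round-like, a pseudocount of 0.1 gave 1 member and median-ratio scaling gave 2. The sign turned with median-ratio scaling for Junb (-0.0614) and Egr1 (-0.0343) from P0 to P5, neither of which was called. It turned for Ier3 in Hep-Orgs from P5 to P10 with TPM (-0.00694) and limma-voom (-0.00782). Leaving out single libraries gave ranges across 0 in the Cho-Orgs for Junb (-0.0246 to 0.10) and Egr1 (-0.19 to 0.41) from P0 to P5 and Fosb (-0.0625 to 0.0438) from P5 to P10. In the hepatocyte table it did so for Atf3 (-0.0430 to 0.0376), Ier2 (-0.00837 to 0.0668) and Myc (-0.0237 to 0.0416) in Hep-Orgs against Pri-Hep, and from P5 to P10 for Jun (-0.00187 to 0.0630), Atf3 (-0.00314 to 0.148) and Ier3 (-0.0382 to 0.0306). Calls that came or went also included Fos from P0 to P5 with median-ratio scaling (adjusted p = 0.0423), Atf3 from P0 to P10 with TPM (adjusted p = 0.0474) and Egr1 from P5 to P10 fitted on those groups alone (adjusted p = 3.40e-06). That Egr1 change was -0.46 with all 9 libraries, without P0 replicate 1 and on those groups alone. Its SE was 0.24 with all 9 libraries and 0.06 without P0 replicate 1, all groups in a fit sharing 1 estimate of the spread. For the other calls the cause was not tested.

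Fosb rested on few fragments at P5 and P10, and depth in the Cho-Orgs and Smart-Seq tables is an estimate. The Smart-Seq libraries had no replicates.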
